A study of Raphidocelis subcapitata with 72 samples.

Results

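The comparison described here set cultures of the green alga Raphidocelis subcapitata headed nZVI at 4 h against cultures headed nZVI at 1 h, across all genes. Its samples were chosen by the headings of the deposited count table, which carry the same names as the sample labels. They make up 24 of the 72 samples, namely the 4 lane columns of 6 of the 18 labelled libraries, 3 at 4 h and 3 at 1 h. All cultures were strain ATCC 22662 in mid-log growth, kept in Sueoka's high salt medium with bubbled air and CO2 under constant white light. By their labels, the nZVI cultures had been given 100 mg/L of nanoscale zero-valent iron. The other groups were cultures with 100 mg/L of magnetite nanoparticles (nFe3O4) and particle-free cultures (headed neg), also at 4 h and 1 h. The study asked which genes respond to the particles at each time. Within a single condition, time with the particles and time in the flask cannot be told apart.

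R. subcapitata is a unicellular, crescent-shaped freshwater alga that is widely used in toxicity tests. Nanoscale zero-valent iron is metallic iron, which corrodes in aerated water, releases ferrous iron and can give rise to reactive oxygen species, whereas magnetite is an iron oxide that is already partly oxidised. Iron is also a nutrient of every alga, since photosystem I, the cytochrome complexes and ferredoxin all carry it. Unlike cultures kept under day and night cycles, cultures in constant light receive no light signal that sets the hour of the cell cycle.

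The name nZVI does not mean the same cultures throughout the deposited files. In the authors' deposited table of log2 transformed values for 50 genes, the columns with the names of the particle-free and nZVI libraries hold each other's patterns. Over the 49 genes found in both tables, the nZVI-headed libraries of the count table had correlations of 0.969, 0.945 and 0.966 at 4 h, and 0.984, 0.988 and 0.989 at 1 h, with the control-named library of the same hour and replicate number. Over all 12 libraries with these names the best match was the other name, with r from 0.945 to 0.991, while the match to the own name ran from −0.779 to 0.432. The nFe3O4 libraries matched their own name, with r from 0.955 to 0.988. The time change itself told the same. The change from 1 h to 4 h in the nZVI-headed counts had r = 0.988 with that of the control-named columns and r = 0.436 with that of the nZVI-named columns of the transformed table. The files do not settle which table carries the right names. All names below are the count table's headings, under which the comparison is 4 h against 1 h of exposure to zero-valent iron. Read by the transformed table, the same libraries are particle-free cultures, the comparison is 4 h against 1 h without particles, and the neg-headed cultures are the exposed ones. The values and tests are the same in both readings.

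Counts over 12181 genes came to 36322220, 28947855 and 37682693 in the 4 h libraries, and to 34831850, 31658826 and 31931421 in the 1 h libraries. The 17 distinct libraries of the series held 26322767 to 43364641 counts. The 18th, nFe3O4 1 h replicate 2, held copies of a lane column of replicate 1 and was left out, so that group has 2 libraries. The labels do not say whether replicates came from separate inocula, so the p-values rest on the spread among these libraries alone, which may be technical in part. The files pair no locus identifier with a gene name or product, so neither the species nor any pathway could be checked by markers, and genes are named by identifier alone.

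The libraries of the 2 hours separated, with more spread among those at 1 h. On the first principal component, which held 46.1% of the variance of log2 CPM, the 4 h libraries sat at 25.0, 29.1 and 26.1 and the 1 h libraries at −36.1, −27.5 and −16.6. CPM is the count scaled to a fixed library size, with library sizes corrected by the TMM method. The second component, with 27.4%, separated replicates within both hours, between −19.3 and 24.9 at 4 h and between −35.6 and 18.4 at 1 h. The median absolute log2 difference per gene was 0.192 to 0.261 between libraries at 4 h, 0.188 to 0.289 between libraries at 1 h, and 0.286 to 0.385 over the 9 pairs of a 4 h with a 1 h library. The closest of those 9 pairs was replicate 3 of both hours, at 0.286. That was about as far as 1 h replicate 3 lay from the other libraries of its own hour, at 0.289 and 0.273.

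**Figure D1:**
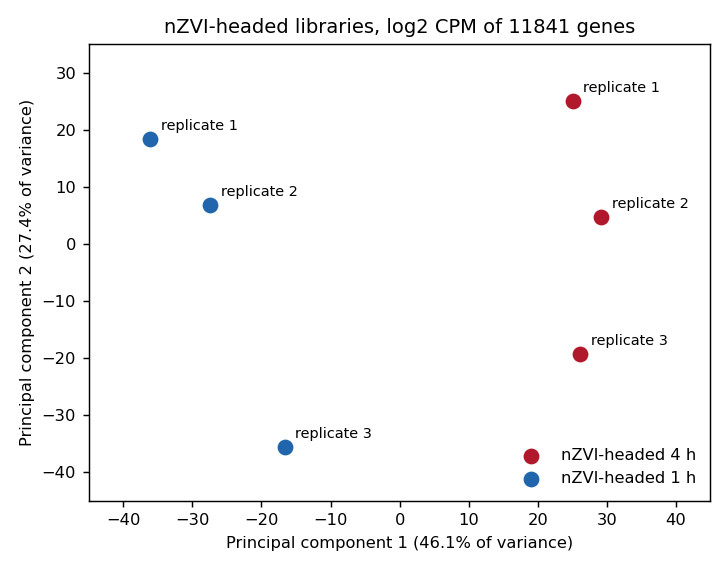
Principal components of log2 CPM over the genes tested in the 6 nZVI-headed libraries, with the first component (46.1% of the variance) on the horizontal axis and the second (27.4%) on the vertical axis. Each point is a library, numbered by replicate. The 3 libraries at 4 h lie between 25.0 and 29.1 on the first component and the 3 at 1 h between −36.1 and −16.6, while replicate 3 of both hours is lowest on the second.

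Between 4 h and 1 h, 2110 of 11841 genes tested changed, which is 17.8%, by the quasi-likelihood test of edgeR at an adjusted p (Benjamini-Hochberg) below 0.05. Of these, 980 were higher at 4 h (8.28% of the genes tested) and 1130 were lower (9.54%). Most changes were modest. The median log2 fold change was 0.69 among the genes that rose and −0.62 among those that fell, and 883 of the changed genes, or 41.8%, moved by less than 1.5-fold. At least 2-fold changes were found in 471 genes (3.98%), of which 253 rose and 218 fell. Over all genes tested the median change was −0.01 and the median absolute change 0.26.

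The largest changes were mostly rises. At least 4-fold changes numbered 63, with 47 rises and 16 falls, and at least 8-fold changes numbered 13, with 11 rises and 2 falls. Among genes whose log2 CPM averaged 3 or more, the 4-fold changes were 24 rises and 2 falls. Under 3 other scalings of the libraries they were 19 to 26 rises and 1 to 3 falls. At lower abundance the 4-fold changes were closer to even, with 23 rises and 14 falls.

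The count of changed genes differed between settings. It was 1372 when only the 6 nZVI-headed libraries entered the fit, and 1149 with lane 1 alone. With library totals alone as the scaling, 617 genes were higher and 1836 lower, a share of 25.2% higher against 46.4% with TMM, and the median of all genes moved to −0.12. Without 4 h replicate 2, 680 genes were higher and 753 lower, and without 4 h replicate 3, 1048 were higher and 754 lower. More genes were higher than lower also with upper-quartile scaling, at 1033 and 993, and with lane 1 alone, at 590 and 559, so which direction held more genes was not stable. Libraries of the 2 hours did not overlap in 3870 genes (32.7% of those tested), which include 2041 of the 2110 changed genes.

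Among called genes whose log2 CPM averaged 3 or more and whose libraries did not overlap between the hours, RSUB_07490 had the largest rise. Its 3 libraries at 4 h had 539, 447 and 501 CPM, against 18.8, 28.6 and 64.4 CPM in the 3 libraries at 1 h. The 4 h libraries lay within a narrow band far above those at 1 h, which differed among themselves by more than 3-fold. The log2 fold change was 3.74 ± 0.42 (SE; adjusted p = 1.95e-05 edgeR quasi-likelihood test, Benjamini-Hochberg adjusted). RSUB_11916 had the next largest rise within these limits, at a lower level. It had 29.5, 27.3 and 25.8 CPM at 4 h, against 0.908, 2.11 and 4.13 CPM at 1 h, with a log2 fold change of 3.54 ± 0.37 (SE; edgeR adjusted p = 1.16e-05). In both genes 1 h replicate 3, which lay nearest to the 4 h libraries on the first principal component, was the highest library of its hour. In bulk RNA, a change in every cell and a larger change in some of the cells cannot be told apart.

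The largest falls within the same limits of abundance and overlap were smaller than the largest rises, near 4-fold. RSUB_06945 had 7.97, 6.30 and 8.32 CPM at 4 h, against 40.0, 31.3 and 23.7 CPM at 1 h. The groups did not overlap, and the log2 fold change was −2.07 ± 0.20 (SE; edgeR adjusted p = 5.05e-06). RSUB_07058 had 10.4, 11.6 and 15.0 CPM at 4 h, against 39.0, 45.8 and 63.9 CPM at 1 h. Here too every 4 h library was below every 1 h library, and the log2 fold change was −2.0 ± 0.30 (SE; edgeR adjusted p = 2.63e-04). These 2 are the only falls of at least 4-fold at a mean log2 CPM of 3 or more. What the products of the 4 genes do is not given in the files.

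**Figure D2:**
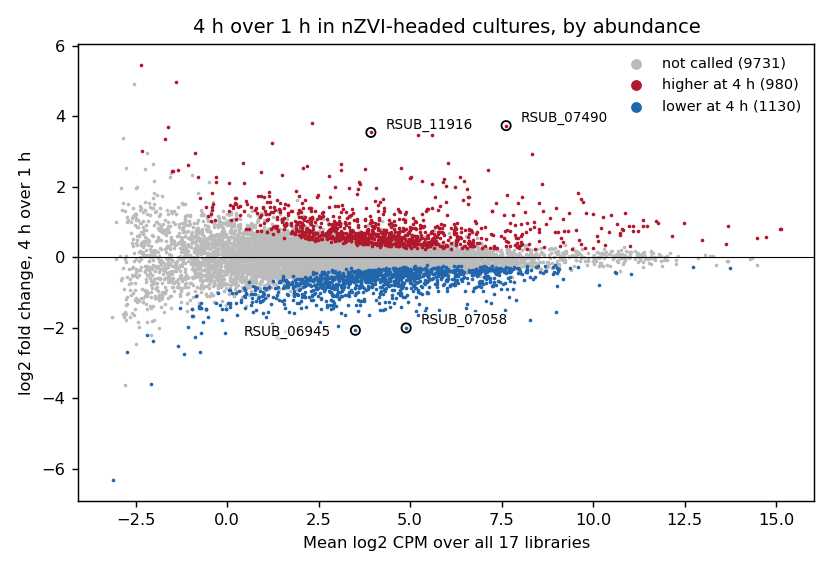
Log2 fold change of 4 h over 1 h in the nZVI-headed cultures (vertical axis) by mean log2 CPM over all 17 libraries (horizontal axis), one point for each gene tested. Red points are the 980 genes higher at 4 h, blue points the 1130 lower, grey points the rest, and the named genes are circled. Large rises reach into the middle of the abundance range, while the 2 circled falls mark the lower edge at the same abundance.

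How often a gene was called depended on its abundance. With the genes split by mean log2 CPM into 10 bins of equal size, 5.57% of the lowest bin and 32.3% of the highest bin changed. In the lowest bin 97.0% of the called genes had moved at least 2-fold, against 12.8% in the highest. The median absolute change of called genes was 1.59 in the lowest and 0.49 in the highest bin on the log2 scale, and the median standard error was 0.53 and 0.10. A count of changed genes thus holds mainly large changes of scarce transcripts and mainly small changes of abundant ones. In the highest bin, from 75.8 CPM upwards, 174 genes were higher and 209 lower.

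**Figure D3:**
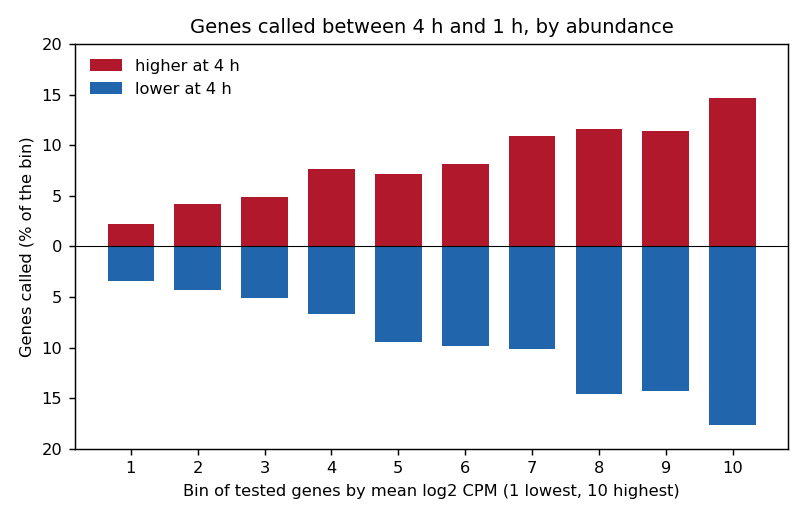
Percent of genes called higher (red, upwards) and lower (blue, downwards) at 4 h than at 1 h in the nZVI-headed cultures, for each of 10 equal bins of genes by mean log2 CPM. The share called runs from 5.57% in the lowest bin to 32.3% in the highest.

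The few most abundant transcripts took a larger part of the RNA at 4 h. The 10 most abundant genes of each library held 23.5% ± 0.754 of its counts at 4 h and 20.5% ± 0.338 at 1 h (SD, n = 3 each). Their shares were 22.8% to 24.3% at 4 h and 20.2% to 20.9% at 1 h, so the groups did not overlap. A two-sided exact permutation test gave p = 0.1, the smallest that 3 against 3 libraries allow. The share of the 10 most abundant genes was also higher at 4 h in the other cultures. In neg-headed libraries it was 25.5% to 26.3% at 4 h and 22.4% to 22.9% at 1 h. In nFe3O4 libraries it was 23.5% to 25.1% at 4 h, and 20.3% and 21.9% in the 2 at 1 h. In nZVI-headed libraries the 100 most abundant genes held 55.0% ± 0.585 at 4 h and 51.9% ± 0.598 at 1 h (SD, n = 3 each; exact permutation p = 0.1). Of the 100 most abundant genes over the 6 libraries, 19 rose, 3 fell and 78 did not pass the test, beside 8.28% and 9.54% of all genes tested. With library totals alone as the scaling those counts became 18 rises and 25 falls. Of the 10 most abundant, 4 rose, 1 fell and 5 did not pass, with log2 fold changes from −0.31 to 0.80. The rises were RSUB_08944 and RSUB_08942 (0.80 and 0.79), and RSUB_11265 and RSUB_11267 (0.57 and 0.56). The CPM of each such pair ran in parallel over the 6 libraries, so the 4 may not be separate changes. RSUB_13075 and RSUB_05724, which did not pass, also ran in parallel. Whether these genes share reads was not tested. The genes called higher held 29.4% ± 1.5 of the counts at 4 h and 19.2% ± 1.02 at 1 h, and those called lower held 7.30% ± 0.187 at 4 h and 11.1% ± 0.447 at 1 h (SD, n = 3 each). These last shares follow from the choice of the genes and describe only how much RNA was involved.

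The same hours were compared in the other cultures, whose libraries are all different ones. In neg-headed cultures 2028 genes changed (17.1%), 1009 higher (8.52%) and 1019 lower (8.61%) at 4 h, and 464 of them moved at least 2-fold (3.92%). In nFe3O4 cultures 1482 changed (12.5%), 631 higher (5.33%) and 851 lower (7.19%), with 2 libraries at 1 h, and 441 of them moved at least 2-fold (3.72%). The neg-headed count was 966 without 4 h replicate 1, 1275 without 1 h replicate 2 and 1274 without 1 h replicate 3, and it was 2611 when only that condition's libraries were fitted, against 1372 for the nZVI-headed cultures in the same setting. The nFe3O4 count was 596 without 1 h replicate 3, 987 without 4 h replicate 1 and 578 when only that condition's libraries were fitted.

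The time change of the nZVI-headed cultures lay closer to that of the nFe3O4 cultures than to that of the neg-headed cultures. Across the 11841 genes, which are not independent replicates, the log2 fold changes had r = 0.591 with those in nFe3O4 cultures and r = 0.295 with those in neg-headed cultures. Of the 2110 genes changed in nZVI-headed cultures, 90.7% had the same sign in nFe3O4 cultures and 69.7% in neg-headed cultures, against 70.4% and 58.0% of all genes. The 980 genes that rose had a median log2 fold change of 0.69 in nZVI-headed cultures, 0.47 in nFe3O4 cultures and 0.08 in neg-headed cultures. For the 1130 genes that fell the medians were −0.62, −0.41 and −0.30 in the same order. In neg-headed cultures the median of the falls was thus farther from 0 than that of the rises.

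Genes changed in the same direction in both nZVI-headed and nFe3O4 cultures numbered 884, which is 41.9% of the nZVI-headed and 59.6% of the nFe3O4 changes. They comprised 399 rises and 485 falls, and 11 further genes changed in opposite directions. With neg-headed cultures 642 were shared, or 30.4% of the nZVI-headed and 31.7% of the neg-headed changes. Those were 199 rises and 443 falls, and 84 genes changed in opposite directions. Of the 980 rises, 143 (14.6%) were called higher in both other conditions and 525 (53.6%) in neither. Of the 1130 falls, 296 (26.2%) were called lower in both other conditions and 498 (44.1%) in neither. A missing call elsewhere does not show a difference. Among the 525 rises and 498 falls called in neither, 231 and 171 differed from the neg-headed time change by the test of the difference, and 26 and 4 differed from the nFe3O4 time change.

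**Figure D4:**
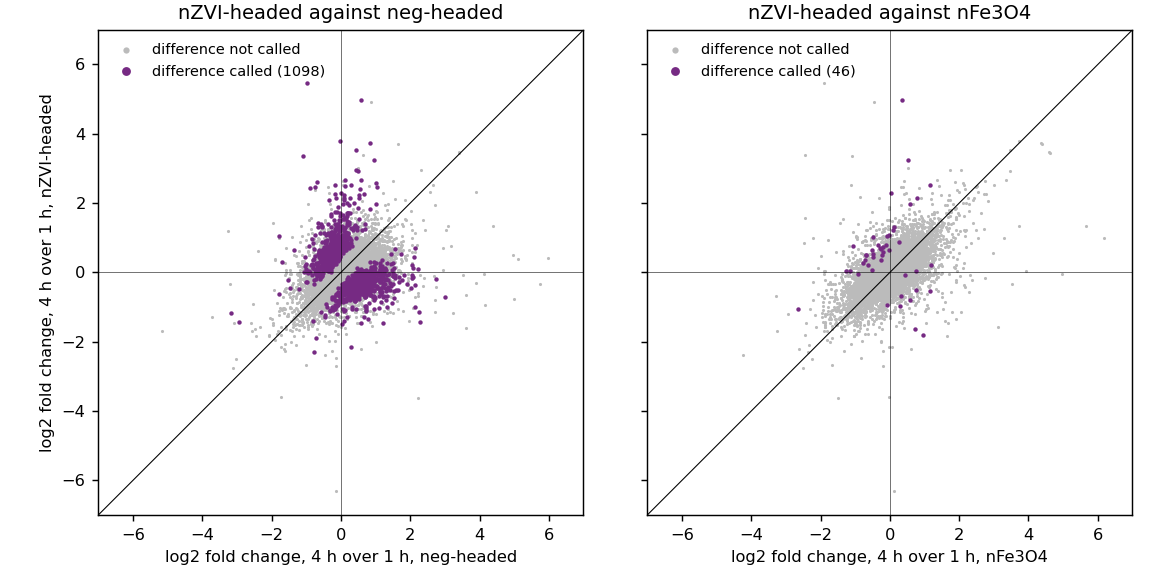
Log2 fold change of 4 h over 1 h in the nZVI-headed cultures (vertical axes) against that in the neg-headed and the nFe3O4 cultures (horizontal axes), one point for each gene tested. Across genes r = 0.295 with neg-headed and r = 0.591 with nFe3O4 cultures, and coloured points are the 1098 and the 46 genes whose time change differed between the conditions.

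The difference of the time change between nZVI-headed and neg-headed cultures passed the test in 1098 genes (9.27%), positive in 543 (4.59%) and negative in 555 (4.69%). It was at least 2-fold in 439 of them (3.71%). Read by the transformed table, this is the time change without particles minus that with zero-valent iron. Among the 543 positive differences, 351 genes rose in nZVI-headed cultures and were not called in neg-headed ones, and 109 were not called in nZVI-headed cultures and fell in neg-headed ones. A further 31 rose in nZVI-headed and fell in neg-headed cultures. The negative differences had a different make-up. Of the 555, 157 fell in nZVI-headed cultures without a call in neg-headed ones, 295 were not called in nZVI-headed cultures and rose in neg-headed ones, and 53 fell in nZVI-headed and rose in neg-headed cultures. The median time change of the positive group was 0.65 in nZVI-headed and −0.22 in neg-headed cultures, and that of the negative group −0.34 and 0.57. The count of 1098 was 652 without nZVI-headed 4 h replicate 1, 638 without nZVI-headed 4 h replicate 2, 532 without neg-headed 4 h replicate 1 and 633 without neg-headed 1 h replicate 3. It was 387 with lane 1 alone.

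By group means, the nZVI-headed cultures lay farther from each of the other conditions at 1 h than at 4 h. The median absolute log2 difference between group means was 0.288 at 4 h and 0.413 at 1 h between nZVI-headed and neg-headed cultures, and 0.146 at 4 h and 0.229 at 1 h between nZVI-headed and nFe3O4 cultures, with 2 nFe3O4 libraries at 1 h. Between single libraries, nZVI-headed and neg-headed cultures differed by at least 2-fold in 778 to 1920 genes at 4 h and in 1927 to 3217 genes at 1 h, over 9 pairs each. Between nZVI-headed and nFe3O4 libraries the ranges overlapped, at 353 to 1350 genes over 9 pairs at 4 h and 448 to 2022 genes over 6 pairs at 1 h. Over the 1098 genes the median gap to neg-headed cultures was 0.306 at 4 h and 1.04 at 1 h, a description only, since the test of the difference chose these genes.

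RSUB_07490 and RSUB_11916 were among these differences. RSUB_07490 averaged 533 ± 69.9 CPM at 4 h and 299 ± 101 CPM at 1 h in neg-headed cultures (SD, n = 3 each). In nFe3O4 cultures it averaged 521 ± 73.0 CPM at 4 h (SD, n = 3) and 25.2 ± 16.3 CPM at 1 h (SD, n = 2). The 3 conditions had like levels at 4 h, and the neg-headed cultures stood apart at 1 h. The time change of RSUB_07490 in nZVI-headed cultures exceeded that in neg-headed cultures by 2.90 ± 0.54 (log2, SE; edgeR adjusted p = 0.0044). Its change in neg-headed cultures alone was 0.84 (edgeR adjusted p = 0.143). In the authors' deposited table of transformed values, the change of RSUB_07490 was 3.66 in the control-named columns and 0.879 in the nZVI-named columns, which is the exchange of names in a single gene.

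RSUB_11916 had 44.4 ± 1.56 CPM at 4 h and 32.6 ± 3.90 CPM at 1 h in neg-headed cultures (SD, n = 3 each). In nFe3O4 cultures it had 31.9 ± 2.92 CPM at 4 h (SD, n = 3) and 2.93 ± 1.85 CPM at 1 h (SD, n = 2). Here too the neg-headed cultures stood apart at 1 h. Unlike RSUB_07490, it was also higher in neg-headed libraries at 4 h, at 42.6 to 45.5 CPM. The nZVI-headed libraries had 25.8 to 29.5 CPM at 4 h and the nFe3O4 libraries 29.3 to 35.1 CPM. The difference of its time change between nZVI-headed and neg-headed cultures was 3.09 ± 0.48 (log2, SE; edgeR adjusted p = 0.0018). Against nFe3O4 cultures, the difference was 0.09 for RSUB_11916 (edgeR adjusted p = 0.982) and −0.63 for RSUB_07490 (edgeR adjusted p = 0.793), neither past the threshold. The named falls did not pass that test against either condition. RSUB_06945 fell by 1.62 in neg-headed and by 1.12 in nFe3O4 cultures on the log2 scale, and RSUB_07058 fell by 1.45 in neg-headed cultures and fell by 1.72 in nFe3O4 cultures.

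On the negative side RSUB_09199 had 25.2, 31.2 and 59.2 CPM at 4 h in nZVI-headed cultures, against 74.1, 66.1 and 91.7 CPM at 1 h. In neg-headed cultures it averaged 15.6 ± 2.38 CPM at 4 h and 6.23 ± 0.700 CPM at 1 h (SD, n = 3 each). It fell in nZVI-headed cultures and rose in neg-headed ones, yet stayed higher in nZVI-headed libraries at both hours. The difference of the time change was −2.33 ± 0.34 (log2, SE; edgeR adjusted p = 0.00143). RSUB_12662 had 12.6, 12.4 and 16.7 CPM at 4 h in nZVI-headed cultures and 16.3, 15.3 and 20.9 CPM at 1 h, where the groups overlapped. Its neg-headed libraries averaged 7.26 ± 2.78 CPM at 4 h and 1.96 ± 0.366 CPM at 1 h (SD, n = 3 each). The difference for RSUB_12662, −2.23 ± 0.36 (log2, SE; edgeR adjusted p = 0.00221), came with a call in neg-headed cultures and none in nZVI-headed ones, and with lane 1 alone its adjusted p was 0.0644.

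The difference of the time change between nZVI-headed and nFe3O4 cultures passed the test in 46 genes (0.388%), 35 positive (0.296%) and 11 negative (0.0929%), and was at least 2-fold in 30 of them (0.253%). Read by the transformed table, this is the time change without particles minus that with magnetite. Of the 35, 19 rose in nZVI-headed cultures without a call in nFe3O4 cultures, 7 rose in nZVI-headed and fell in nFe3O4 cultures, and 6 were not called in nZVI-headed and fell in nFe3O4 cultures. These calls were fragile. DESeq2 gave 106 genes, and the quasi-likelihood test gave 14 with lane 1 alone. Leaving out 1 library gave 0 to 61 genes. None was left without nFe3O4 1 h replicate 3 or without nZVI-headed 4 h replicate 2. There, 800 of 11947 and 899 of 11846 genes tested had an unadjusted quasi-likelihood p below 0.05. In the main fit 1177 of 11841 did. The count of differences was 12 without nZVI-headed 4 h replicate 1, and 21 and 20 without nZVI-headed 1 h replicates 1 and 2. It was 17 without nFe3O4 1 h replicate 1, and 19 and 17 without nFe3O4 4 h replicates 1 and 3. Positive and negative differences were 8 and 9 without nFe3O4 1 h replicate 1. The nFe3O4 arm had only 2 libraries at 1 h.

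Among these genes RSUB_05389 had 13.1, 17.7 and 12.6 CPM at 4 h in nZVI-headed cultures, against 3.55, 3.27 and 2.99 CPM at 1 h. All other groups, both of nFe3O4 and both of neg-headed cultures, averaged from 9.95 to 21.0 CPM, so the 3 nZVI-headed libraries at 1 h were the lowest. In nFe3O4 cultures RSUB_05389 averaged 17 ± 1.87 CPM at 4 h (SD, n = 3) and 9.95 ± 1.89 CPM at 1 h (SD, n = 2), a rise of 0.77 on the log2 scale (edgeR adjusted p = 0.00972). RSUB_05389 rose by 2.14 ± 0.17 in nZVI-headed cultures (log2, SE; edgeR adjusted p = 1.22e-06), and its time change differed from that in nFe3O4 cultures by 1.37 ± 0.24 (log2, SE; edgeR adjusted p = 0.0244). It differed from that in neg-headed cultures by 2.3 (log2; edgeR adjusted p = 1.07e-04). RSUB_00577 had 34.6, 32.1 and 21.7 CPM at 4 h in nZVI-headed cultures, against 17.3, 15.4 and 11 CPM at 1 h. In nFe3O4 cultures it averaged 23.8 ± 3.79 CPM at 4 h (SD, n = 3) and 33.4 ± 6.03 CPM at 1 h (SD, n = 2). The difference for RSUB_00577 was 1.51 ± 0.30 (log2, SE; edgeR adjusted p = 0.0378), and up to 0.251 when 1 library was left out.

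RSUB_02091 and RSUB_01781 had the largest negative differences from nFe3O4 cultures. RSUB_02091 had 47.6, 42.9 and 27.3 CPM at 4 h in nZVI-headed cultures, against 119, 137 and 158 CPM at 1 h. In nFe3O4 cultures it had 26.9, 99.4 and 58.1 CPM at 4 h, a wide spread, and averaged 31.3 ± 1.29 CPM at 1 h (SD, n = 2). The difference for RSUB_02091 was −2.78 ± 0.55 (log2, SE; edgeR adjusted p = 0.0378), and its adjusted p reached 0.210 when 1 library was left out. RSUB_01781 had 9.06, 8.60 and 7.12 CPM at 4 h in nZVI-headed cultures, against 22.5, 24.2 and 30.5 CPM at 1 h. In nFe3O4 cultures it averaged 12.5 ± 3.77 CPM at 4 h (SD, n = 3) and 7.5 ± 3.73 CPM at 1 h (SD, n = 2). For RSUB_01781 the difference was −2.37 ± 0.42 (log2, SE; edgeR adjusted p = 0.0252). Both genes had a neg-headed fall in the same direction as in nZVI-headed cultures, at 30.1 ± 10.8 CPM at 4 h and 101 ± 14 CPM at 1 h for RSUB_02091, and 12.4 ± 2.78 CPM at 4 h and 37.4 ± 8.47 CPM at 1 h for RSUB_01781 (SD, n = 3 each).

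**Figure D5:**
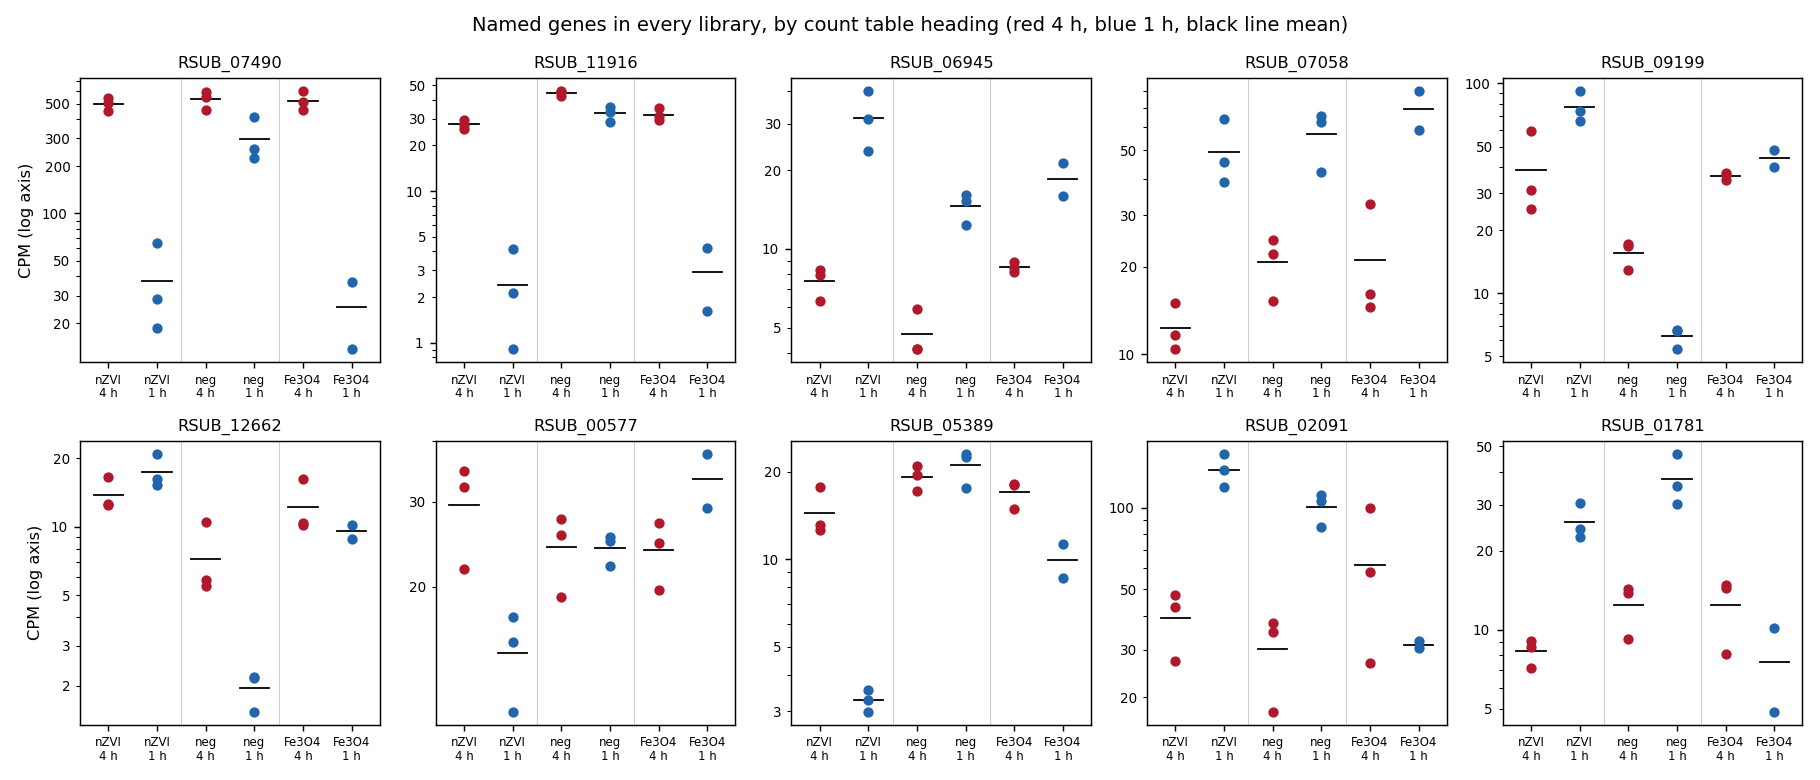
CPM (log axes) of the 10 named genes in each of the 17 libraries, with 4 h in red and 1 h in blue within the nZVI-headed, neg-headed and nFe3O4 (marked Fe3O4) cultures. Points are libraries and black lines the group means. RSUB_07490 and RSUB_11916 are low at 1 h in nZVI-headed and nFe3O4 cultures only, and RSUB_05389 is lowest in nZVI-headed cultures at 1 h.

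The authors' deposited table of 4 h against 1 h holds 5408 genes, 2745 with a positive and 2663 with a negative log2 fold change, and names no condition. All of its adjusted p-values lie below 0.05, so the correlations and shared signs below cover only genes past that threshold. Of these, 5243 were tested here, or 44.3% of the genes tested. Across them, the log2 fold changes in the authors' deposited table had r = 0.885 with the changes in nZVI-headed cultures, 0.917 with those in nFe3O4 cultures, 0.821 with those in neg-headed cultures and 0.975 with the mean of the 3 conditions. The median absolute difference from the authors' deposited table was 0.153 for nZVI-headed cultures and 0.030 for the mean of the 3. Of the 2110 genes changed in nZVI-headed cultures 1720 were listed there (81.5%), and 1716 of those had the same sign. The samples behind that table are not named and may include these libraries. Correlations, shared calls and shared signs with it are therefore no independent check. For RSUB_07490 the authors' deposited table gives 2.08, and for RSUB_06945 it gives −1.60, both nearer to 0 than the changes in nZVI-headed cultures. Of the authors' 50 most variable genes, which they chose on these samples, 49 were tested, and 21 were higher, 10 lower and 18 not called at 4 h in nZVI-headed cultures, with a median of 0.76. That is 42.9% higher and 20.4% lower, beside 8.28% and 9.54% of all genes tested, whose median was −0.01.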

How the data were processed

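RNA-seq counts of 24 samples (6 libraries) were analysed, with the other libraries of the series in the same fit. Per the labels' protocols, stranded poly(A) libraries were read from both ends. Per the submitters' processing notes, the tools included HISAT2, Trimmomatic, bcl2fastq, bedtools 2.27.1, SAMtools, DESeq and DESeq2, each with no role stated. For the genome build, annotation and counting options, the sources used here give nothing. Genes that share reads with near-identical copies could not be marked.

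The authors deposited whole, unnormalized counts per gene in 72 columns, per the file headers. Of lane counts from 1 to 20, 63.5% were even, and the cause was not tested. The authors deposited log2 values (regularized log, centred per gene) for 50 genes. Their deposited table of 4 h against 1 h holds, per the file headers, a mean normalized count and a standard error (other values), a log2 fold change, a p-value, an adjusted p-value and a Wald statistic (a score).

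The 4 columns of a replicate were read as lanes and summed. Between lanes the chi-square per degree of freedom was 2.50 to 3.76 over all libraries used. Between replicate libraries of the same group it was 10.8 to 63.3 over all groups, and 17.0 to 56.6 in the nZVI-headed groups. The 4 columns of nFe3O4 1 h replicate 2 equalled 1 column of replicate 1 and were left out, leaving 17 libraries. The quasi-likelihood test of edgeR 4.0.16 (with limma 3.58.1 in R 4.3.3; TMM, 6 group means, Benjamini-Hochberg adjusted p below 0.05) was run on 11841 genes, after a filter by group removed 340 of 12181. The common coefficient of variation was 0.190. Standard errors were taken from the test statistic. Names were compared on log2(CPM + 0.5), centred per gene. The same script was tested on simulated data. Alternatives were 3 other scalings, no filter, DESeq2 1.42.0, lane 1 alone, 2 kinds of replicate block, a fit of the 2 groups alone and leaving out each library.

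Genes were named by rule. Among called genes whose log2 CPM averaged 3 or more and, for 2 groups, whose libraries did not overlap, the 2 largest rises and 2 largest falls were taken, and likewise for each test of a difference. The comparison and its tests were chosen with earlier results of these data known.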

Additional observations from a re-analysis of the deposited data

Results flagged for a closer look

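The results below were singled out because the change from 1 h to 4 h differed between conditions by a direct test of that difference (edgeR quasi-likelihood test, Benjamini-Hochberg adjusted). The time change differed between nZVI-headed and neg-headed cultures in 1098 genes, and between nZVI-headed and nFe3O4 cultures in 46. Under the names of the transformed table, the first of these sets particle-free cultures against zero-valent iron, and the second particle-free cultures against magnetite. The values and their signs are unchanged.

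Against neg-headed cultures the named genes with positive differences were RSUB_11916 (3.09 on the log2 scale) and RSUB_07490 (2.90), and those with negative differences RSUB_09199 (−2.33) and RSUB_12662 (−2.23). Against nFe3O4 cultures they were RSUB_00577 (1.51), RSUB_05389 (1.37), RSUB_02091 (−2.78) and RSUB_01781 (−2.37). The first 3 genes named here against neg-headed cultures stayed past the threshold in each of the 20 alternatives run for them. The 4 against nFe3O4 cultures did not, as given with the alternatives. Groups of 3 libraries are too small for a check of single outlying libraries.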

How the results depend on the processing

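No named gene changed the direction of its fold change or difference in any alternative run, while the balance of higher and lower counts did turn in some, as given above. The 2110 changed genes were 1149 with lane 1 alone (590 higher, 559 lower), 1372 with only the nZVI-headed libraries fitted (691 lower) and 1433 to 1898 without 1 library. With totals alone they were 617 higher and 1836 lower, and without 1 library 680 to 1048 higher and 753 to 1045 lower. The neg-headed count was 1087 with lane 1 and 966 to 1681 without 1 library, and the nFe3O4 count 781 with lane 1, 578 with its own libraries alone and 596 to 1380 without 1 library. Counts of differences from neg-headed cultures were 387 with lane 1 and 532 to 1257 without 1 library. Those from nFe3O4 cultures were 106 by DESeq2, 14 with lane 1 and 0 to 61 without 1 library. The cause was not tested, except that lane 1 alone holds fewer counts and a fit without a library fewer samples. Same-numbered nZVI-headed libraries of the 2 hours had correlations of 0.30, −0.02 and 0.46 in their deviations from the group means. Pairs with different numbers ran from −0.44 to 0.26. These values do not settle whether the numbers mark pairs, and the labels do not say. The main fit therefore had no block, and 2 kinds of replicate block were run as alternatives. With a replicate block by number the changed genes were 1948 and the differences from nFe3O4 cultures 27. With a replicate block by culture the changed genes were 2892, the neg-headed count 3168, and the differences 1995 from neg-headed and 123 from nFe3O4 cultures. The 4 genes named for the nZVI-headed comparison stayed past the threshold in all 15 alternatives each. Of the 19 alternatives for the genes named against nFe3O4 cultures, RSUB_00577 missed it in 14, RSUB_02091 in 11, RSUB_01781 in 6 and RSUB_05389 in 4.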
